A study of Drosophila melanogaster with 2 samples.

Results

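Peaks of the homeodomain protein Invected (Inv) were examined at 80 genes of the secretory pathway and of vesicle traffic, out of 13945 protein-coding genes on the 6 chromosome arms of Drosophila melanogaster. The genes were chosen by symbol alone, from those that start with Sec, Srp, Rab, Syx or Trs and a digit or with SrpR, or that end in COP. They fell into 13 translocon and targeting genes, 13 coat genes, 6 exocyst genes, 28 Rab GTPase genes, 10 syntaxin genes, 4 TRAPP genes, 3 other Sec genes and 3 genes of Rab3 regulators. Chromatin came from whole transgenic embryos aged 0 to 24 h that expressed an inv-eGFP fusion (Inv joined to a green fluorescent protein), and the sample descriptions name an antibody against GFP, while the antibody field of the labels names inv. Whether untagged Inv could add to the peaks was not tested. Which cells made the fusion protein, and under which regulatory sequences, is not stated. The 2 biological replicates had the same genotype, age and antibody, and there was no second condition. Peaks from whole embryos average over all cells, so strong binding in few cells and weak binding in many cannot be told apart.

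Proteins bound for secretion are recognised at the ribosome by the signal recognition particle (SRP), passed to the SRP receptor and threaded through the Sec61 translocon into the endoplasmic reticulum (ER). COPII coats then bud vesicles from the ER, and COPI coats return material from the Golgi. Rab GTPases mark compartments, the exocyst and TRAPP complexes tether vesicles, and syntaxins are SNARE proteins that drive fusion. Most of these genes act in every cell, and Inv is best known for its part in patterning the posterior compartment of each segment. One gene with a matching symbol has another role: Srp54 encodes an SR-type splicing factor in the fly, while Srp54k encodes the SRP protein. It stayed in the counts because the symbol rule took it, and it had no summit.

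The sequences below cover the strongest summit near a TSS (transcription start site) of each gene and 50 bases on either side of it, on the strand of the gene, 5′ to 3′, from the Release 6 genome. They were picked by signal within each group and give examples of summits with and without the word TATCGA, the core of an element (DRE) that is common in housekeeping promoters; the shares over all summits are given further on. Capitals mark TATCGA or its reverse complement TCGATA. Several of these summits lay nearer the TSS of a neighbouring gene, as given further on. The first set is from the translocon and targeting genes, where the summit of Sec61beta, the second strongest, is not printed and lacked the word.
Sec61alpha: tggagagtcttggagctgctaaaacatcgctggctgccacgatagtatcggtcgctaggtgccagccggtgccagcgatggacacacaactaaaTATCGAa
Srp14: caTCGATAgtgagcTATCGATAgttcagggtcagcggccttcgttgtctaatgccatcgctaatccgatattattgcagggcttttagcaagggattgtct
Srp19: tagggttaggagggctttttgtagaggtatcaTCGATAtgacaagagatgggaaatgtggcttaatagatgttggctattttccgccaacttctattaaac
These lay at chr2L:6480826-6480926 (minus strand), chr3R:20579862-20579962 (plus strand) and chr3L:7348184-7348284 (minus strand), and each held the word, as did 4 of the 7 summits of this group in all. The 3 strongest coat gene summits follow.
Sec23: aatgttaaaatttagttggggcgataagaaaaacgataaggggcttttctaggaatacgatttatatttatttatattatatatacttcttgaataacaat
Sec13: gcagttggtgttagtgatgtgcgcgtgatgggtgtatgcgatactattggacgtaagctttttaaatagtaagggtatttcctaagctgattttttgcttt
gammaCOP: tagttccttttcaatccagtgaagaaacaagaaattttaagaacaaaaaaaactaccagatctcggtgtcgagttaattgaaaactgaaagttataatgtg
They lay at chr3R:5648830-5648930, chr3R:23356043-23356143 and chr3R:31571931-31572031, all on the plus strand, and none held the word. The strongest summit of each of the other groups comes last.
Rab30: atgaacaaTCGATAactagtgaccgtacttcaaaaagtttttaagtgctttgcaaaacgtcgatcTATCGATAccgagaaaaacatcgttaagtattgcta
Syx17: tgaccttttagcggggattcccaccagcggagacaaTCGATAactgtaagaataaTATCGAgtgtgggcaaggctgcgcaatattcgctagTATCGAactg
Sec20: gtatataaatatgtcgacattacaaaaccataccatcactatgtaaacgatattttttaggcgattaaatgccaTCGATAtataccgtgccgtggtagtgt
Sec3: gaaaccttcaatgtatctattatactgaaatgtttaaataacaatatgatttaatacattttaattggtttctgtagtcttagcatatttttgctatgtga
Trs23: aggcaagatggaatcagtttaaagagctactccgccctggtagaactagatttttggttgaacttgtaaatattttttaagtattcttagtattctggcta
Rab30 (chr2L:7032618-7032718, minus strand), Syx17 (chr3L:4403378-4403478, plus strand) and Sec20 (chr3R:5824526-5824626, minus strand) held the word. Sec3 (chr3L:17425303-17425403, minus strand) and Trs23 (chr2L:8685963-8686063, plus strand) did not.

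The authors' main pooled list, made from both replicates, held 3406 peaks, of which 3393 lay on the 6 arms. The signal of a peak is a value given by the authors on a scale they do not state, with a median of 132 and a maximum of 3141 in this list. Each replicate also had its own list, of 2859 peaks in replicate 1 and 2156 in replicate 2. Signals were compared only within a list, and replicate values below are those of the overlapping ranked peak whose summit lay nearest. The read depth of the libraries is unknown.

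How many of the genes held a summit near their own start was asked first. A summit lay within 1 kb of an own TSS in 43 of 80 secretory genes (53.8%), against 27.2% of all protein-coding genes. With summits counted over the whole gene and 2 kb beyond either end, the numbers were 51 of 80 (63.8%), against 37.7% of all genes. The remaining 29 genes had no summit by either rule. These shares are descriptions: the genes were chosen with earlier results of these data known, and no test was made of the difference from all genes. The median gene length was 2.49 kb in the secretory genes and 2.17 kb in all genes, and 77.5% against 73.5% had a single TSS.

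The share by group was highest in the coat genes, with 9 of 13 (69.2%), and in the Rab genes, with 17 of 28 (60.7%). Translocon and targeting genes had 7 of 13 (53.8%), syntaxins 5 of 10 and exocyst genes 3 of 6. TRAPP genes had 1 of 4, the other Sec genes 1 of 3 and the Rab3 regulators 0 of 3. With groups this small, 1 gene moves a share by up to 33.3 percentage points, and the order of the groups was not tested.

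**Figure D1:**
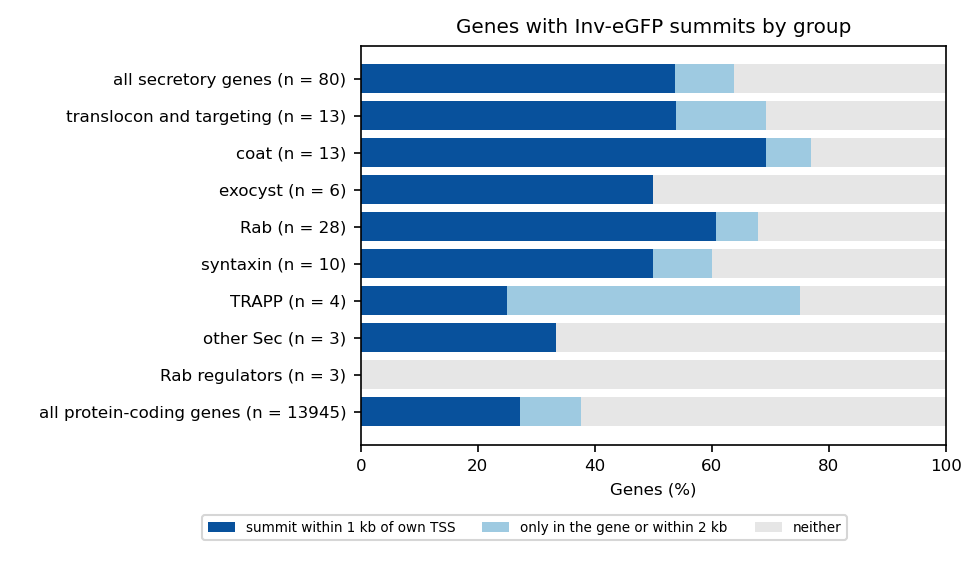
Share of genes (%) with an Inv-eGFP summit within 1 kb of an own TSS (dark), with one only in the gene or within 2 kb (light) and with neither (grey), by group, with all protein-coding genes at the bottom. The dark bar reaches 53.8% for all secretory genes and 27.2% for all protein-coding genes.

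Both replicates gave similar counts. The replicate 1 list had a summit within 1 kb of an own TSS in 42 of 80 secretory genes, against 25.4% of all genes, and the replicate 2 list in 35 of 80, against 18.5%. All 35 genes of replicate 2 were also in the replicate 1 list. The conservative pooled list, a smaller list that the authors made, had 40 of 80, against 23.1% of all genes. Of the strongest peaks of the 43 genes, 35 (81.4%) overlapped a listed peak of each replicate, 6 overlapped one of 1 replicate and 2, at alphaCOP and Rab5, overlapped neither. Over all 3800 genes with such a summit, 62.0% had a strongest peak that overlapped both. Counted over the 52 distinct summits near a secretory TSS, 40 (76.9%) overlapped both, against 56.9% of all 2912 promoter summits. This count is not independent of the one by gene, because it includes the strongest peaks. The weaker summits at Sec23, Sec63, beta'COP, epsilonCOP and Syx16 also lie in peaks that overlap or equal the strongest peak of the same gene. Across the 43 genes, the replicate signals had a Spearman rho of 0.911, given as a description because both were measured at the same peaks of 1 pooled list.

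Signals of peaks near secretory TSS reached the top of the list. The median of the strongest peak near an own TSS was 361 in the 43 secretory genes, with a range of 67.2 to 1658, and 195 in all 3800 genes. Among the 340 strongest peaks of the list lay the strongest peaks of 13 secretory genes, 16.2% of the 80, against 3.99% of all genes. Of these 13, the summits at Sec61alpha, Srp14, Sec23, Sec13, Sec3, Rab30, Rab39 and Sec20 lay nearer the TSS of another gene. Those at Sec61beta, Rab21, Rab35, Rab10 and Rab7 lay nearest their own. Over the 43 strongest summits, the own TSS was the nearest in 24 (55.8%), against 65.8% over all 3800 genes. The median and the count of 13 were not recomputed for summits nearest their own TSS.

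The strongest peaks lay at genes of the Sec61 translocon. Sec61alpha encodes the pore of the translocon, and its peak had a pooled signal of 1658, with 1241 in replicate 1 and 415 in replicate 2, and ranked 6 in the whole list. Its summit lay 301 bp upstream of its TSS and 53 bp from that of Daxx, a histone chaperone gene. Sec61beta, a small subunit of the translocon, had 1449 pooled, 1145 in replicate 1 and 294 in replicate 2, at 72 bp upstream of its own TSS, and ranked 12. Both thus lay far above the list's median in the pooled list and ranked 6 and 9 in replicate 1 and 16 and 67 in replicate 2. The third subunit, Sec61gamma, had no summit by either rule, and its strongest ranked peak within 1 kb had a signal of 30.6.

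Within the translocon and targeting group, genes for proteins of the SRP itself came next. Srp14, which binds the Alu end of the SRP RNA, had 833 pooled, 602 in replicate 1 and 230 in replicate 2. Srp19, which binds the other end of that RNA, had 445 pooled, 310 in replicate 1 and 124 in replicate 2. The summits at Srp14 and Srp19 lay nearer the TSS of a neighbour, EloB and qm. Srp68, a large SRP protein, had 417 pooled, 253 in replicate 1 and 146 in replicate 2. These were listed in both replicates, whereas Srp54k, the GTPase that binds signal sequences, had 73.5 pooled, 50.6 in replicate 1 and 25.0 in replicate 2, and was listed in replicate 1 only. Srp9, the partner of Srp14, and Srp72, the partner of Srp68, had no summit by either rule. Sec63, an ER membrane protein with a J domain, had 276 pooled, 223 in replicate 1 and 71.4 in replicate 2. The SRP receptor genes were counted only by the wider rule. The summit at SrpRbeta, with a signal of 187, lay 1467 bp downstream of its TSS, and the stronger of those at SrpRalpha, with 116, lay nearest the TSS of Rpt3, a proteasome ATPase gene.

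Among coat genes the COPII coat had a summit within 1 kb of an own TSS at 5 of the 6 genes taken by the symbol rule. Sar1, the GTPase of this coat, lies outside that rule and had 467 pooled, 410 in replicate 1 and 62.3 in replicate 2. Sec23, the inner coat protein that stimulates the GTPase Sar1, had 731 pooled, 403 in replicate 1 and 264 in replicate 2. Sec13, an outer coat protein that also belongs to the nuclear pore, had 692 pooled, 496 in replicate 1 and 201 in replicate 2. The cargo-binding paralogs Sec24AB and Sec24CD were lower, at 240 and 206 pooled, 137 and 103 in replicate 1 and 109 and 90.8 in replicate 2. Sec16, the scaffold of ER exit sites, had 78.1 pooled, 60.0 in replicate 1 and 18.3 in replicate 2, and was listed in replicate 1 only. Its summit lay 392 bp upstream of its TSS and 31 bp from that of CG1824. The strongest summits at Sec23 and Sec13 also lay nearer the TSS of a neighbour. Sec31, the partner of Sec13 in the outer coat, had a summit only by the wider rule, with 245, and that lay 4 bp from the TSS of CG13751.

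The COPI coat had peaks at 4 of its 7 genes, with lower signals than Sec23 and Sec13. The gammaCOP peak had 396 pooled, 247 in replicate 1 and 146 in replicate 2. The beta'COP peak had 222 pooled, 135 in replicate 1 and 86.8 in replicate 2, and that of epsilonCOP had 177 pooled, 91.8 in replicate 1 and 85.7 in replicate 2. The lowest was alphaCOP, with 67.2 pooled, 40.8 in replicate 1 and 21.3 in replicate 2, listed in neither replicate. No summit lay at betaCOP, deltaCOP or zetaCOP by either rule, although all the subunits belong to 1 complex.

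**Figure D2:**
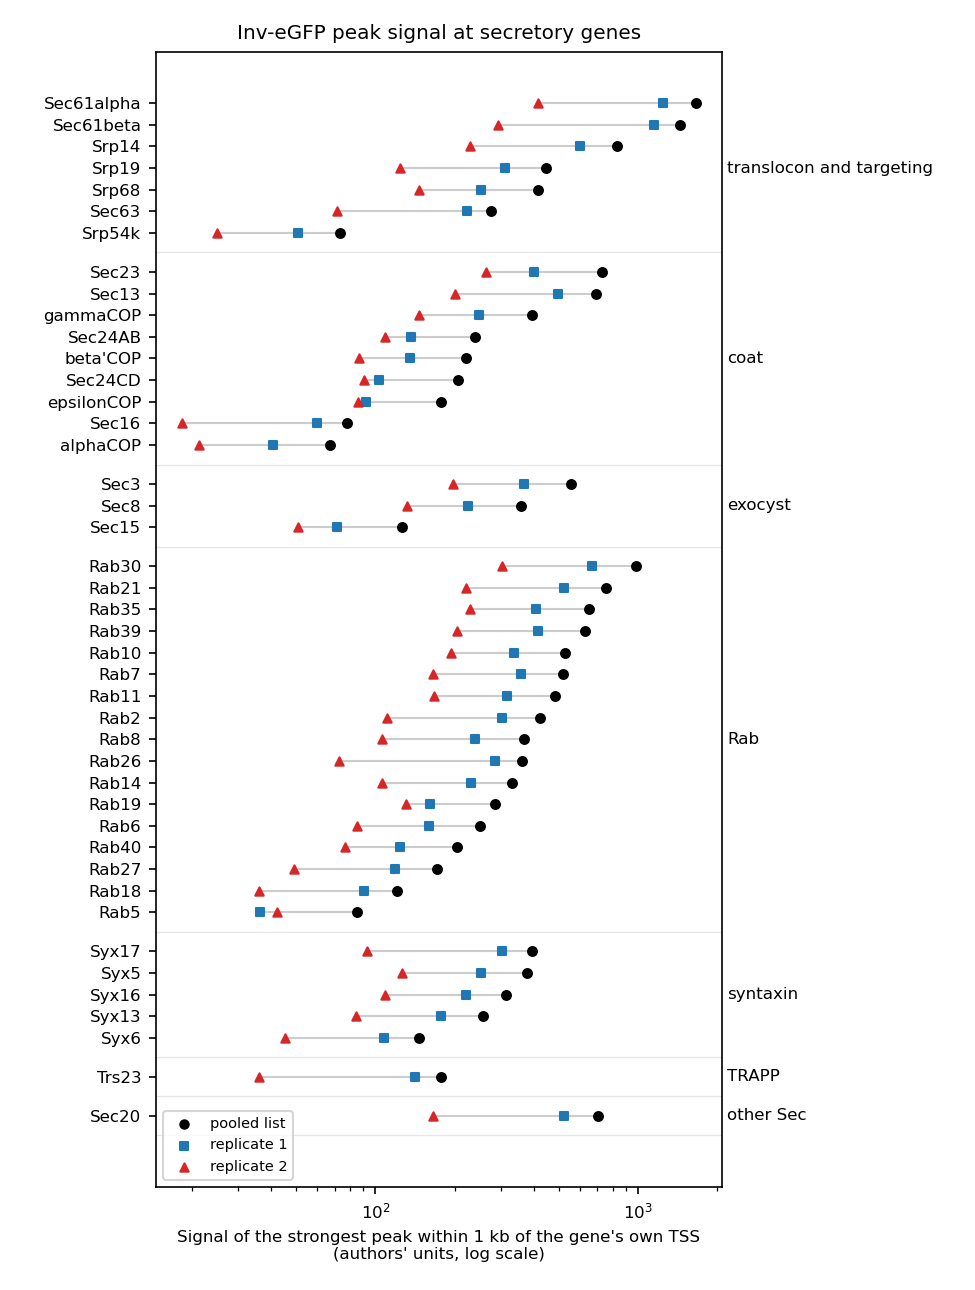
Signal (authors' units, log scale) of the strongest peak within 1 kb of an own TSS at each of the 43 secretory genes, by group, in the pooled list (circles) and in the ranked lists of replicate 1 (squares) and replicate 2 (triangles). Sec61alpha and Sec61beta stand highest, at 1658 and 1449 pooled, and replicate 2 lies below replicate 1 except at Rab5; the scales of the replicates were not matched.

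Rab genes were the largest group. Rab30, a Golgi Rab, led with 978 pooled, 665 in replicate 1 and 303 in replicate 2. Rab21, which acts in early endocytosis, had 754 pooled, 524 in replicate 1 and 222 in replicate 2. Rab35, a Rab of endocytic recycling, had 650 pooled, 409 in replicate 1 and 230 in replicate 2. Rab10 acts in polarised secretion. Together with Rab39 (628 pooled, 416 in replicate 1 and 204 in replicate 2) and Rab10 (525 pooled, 338 in replicate 1 and 194 in replicate 2), these were the highest of the 17. The other 12 ran from 518 at Rab7, the late endosomal Rab, to 85.0 at Rab5, the early endosomal Rab. Between them lay Rab11, Rab2, Rab8, Rab26, Rab14, Rab19, Rab6, Rab40, Rab27 and Rab18. Rab5 had 36.5 in replicate 1 and 42.3 in replicate 2, was listed in neither, and its strongest summit lay 360 bp downstream of a TSS. The peaks of Rab6, Rab27 and Rab18 were listed in replicate 1 only.

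Rab32 and Rab9 were counted by the wider rule alone, with signals of 746 and 744 that lay nearest the TSS of Rme-8 and RtcB, at 52 bp and 26 bp. No summit lay at Rab1, which acts between ER and Golgi, at Rab3, a Rab of synaptic vesicles, or at Rab4 and Rab23. The same held for Rab9D, Rab9Db, Rab9E, Rab9Fa and Rab9Fb, which lie between positions 10589089 and 10952486 of the X chromosome. How reads from related gene copies were placed is not given in the sources used here. The regulators Rab3-GAP, Rab3-GEF and Rab3GAP1 also had no summit.

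The 5 syntaxins with a summit near their TSS act on internal membranes, as do some of those without one. Syx17, which acts in fusion of autophagosomes with lysosomes, had 395 pooled, 303 in replicate 1 and 93.0 in replicate 2. Syx5, the syntaxin of the early Golgi, had 378 pooled, 253 in replicate 1 and 126 in replicate 2. Syx16, a trans-Golgi syntaxin, had 313 pooled, 221 in replicate 1 and 109 in replicate 2, at a summit 622 bp from its TSS and 22 bp from that of HERC2. Syx13, an endosomal syntaxin, had 256 pooled, 178 in replicate 1 and 84.2 in replicate 2, and Syx6 had 146 pooled, 108 in replicate 1 and 45.2 in replicate 2. All 5 were listed in both replicates. Syx1A and Syx4, syntaxins of the plasma membrane, had no summit by either rule, and neither did Syx18 of the ER nor Syx7 of endosomes. Syx7 had one near its TSS in the list of replicate 1 alone. The stronger summit at Syx8, with 574, lay 1300 bp upstream of its TSS and nearest that of l(3)73Ah.

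Among genes of the tethering complexes taken by the symbol rule, the exocyst had a summit near the TSS at 3 of 6. TRAPP had one at 1 of 4, or 3 of 4 by the wider rule. Exo70 and Exo84 of the exocyst and Bet5 of TRAPP, outside the symbol rule, had no summit by either rule. Bet3 of TRAPP, also outside it, had 320 pooled, 236 in replicate 1 and 89.6 in replicate 2. Its summit lay equally near the TSS of Nf-YA. In the exocyst, Sec3 had 556 pooled, 367 in replicate 1 and 198 in replicate 2. Sec8 had 358 pooled, 226 in replicate 1 and 132 in replicate 2, and Sec15, the effector of Rab11, had 126 pooled, 71.1 in replicate 1 and 50.5 in replicate 2. Sec5, Sec6 and Sec10 of the same complex had none. In TRAPP, Trs23 had 178 pooled, 141 in replicate 1 and 35.9 in replicate 2 and was listed in replicate 1 only, at a summit 58 bp from the TSS of PrBP. Trs20 and Trs31 were counted by the wider rule alone, at summits nearest the TSS of SsRbeta and CG10151, and Trs33 had none. Sec20, an ER SNARE, had 706 pooled, 521 in replicate 1 and 166 in replicate 2, while Sec22, another SNARE, and Sec71, an exchange factor for Arf, had none.

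Positions relative to the start sites were then compared. Of the 43 strongest summits, 41 (95.3%) lay upstream of the own TSS, against 83.2% over all 3800 genes, and the exceptions were Rab5 and Syx13. The median distance was 94.0 bp in secretory genes and 87.0 bp in all genes. Within 100 bp of the TSS lay 23 of the 43 summits (53.5%), about the same share as the 54.5% over all genes. By group these were 13 of 17 Rab, 3 of 5 syntaxin, 3 of 9 coat and 2 of 7 translocon and targeting summits. The groups are small and the differences between them were not tested. The widest distances inside the window of 1 kb, by the nearest summit, were 714 bp at Rab26, 622 bp at Syx16 and 392 bp at Sec16. Just outside it lay Syx8 at 1300 bp, SrpRbeta at 1467 bp and Trs31 at 1506 bp.

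**Figure D3:**
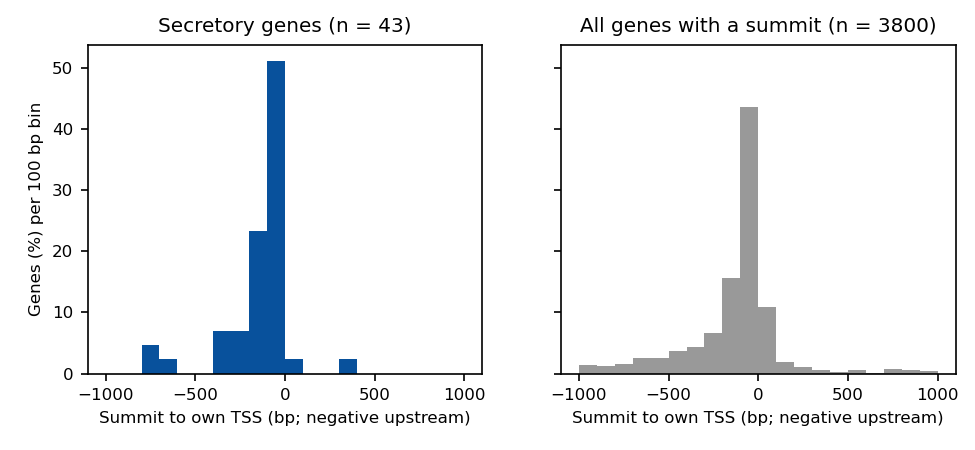
Distance in bp from the strongest summit to the gene's own TSS, negative upstream, as the percentage of genes in bins of 100 bp, for the 43 secretory genes (left) and all 3800 genes with a summit within 1 kb (right). In both sets the tallest bin lies within 100 bp upstream, and 41 of the 43 secretory summits lie upstream.

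Most of these promoters were shared with another gene. A TSS of another protein-coding gene lay within 1 kb of the strongest summit in 34 of the 43 secretory genes (79.1%), against 68.4% over all genes with a summit. In 29 of the 34 the neighbour was transcribed away from the secretory gene and the summit lay between both starts. The neighbour's TSS was the nearer one in 19 genes, so the summit cannot be given to the secretory gene alone. Examples were Sec13, with the summit 29 bp from ATPsynCF6, a gene of the mitochondrial ATP synthase, and 185 bp from Sec13, and Rab26, with the summit 40 bp from Pc (Polycomb) and 714 bp from Rab26. Srp14 shared its summit with EloB, Srp19 with qm, Sec23 with MTA1-like, Rab30 with Caper and Sec3 with COX7B. Each of these summits lay nearer the partner, at 62 bp against 203 bp for Srp14 and 79 bp against 200 bp for Srp19. The distances were 142 bp against 185 bp for Sec23, 53 bp against 62 bp for Rab30 and 124 bp against 136 bp for Sec3. At Rab39 the summit lay 49 bp from the TSS of Pdp and 321 bp from its own. The strongest summits at Syx5 and Sec20 also lay nearer another TSS, that of CG5861 and of dgrn. At Rab18 the strongest summit lay 728 bp upstream and 60 bp from the TSS of RpL35, a ribosomal protein gene, and a weaker one, with a signal of 76.7, lay 18 bp from its own TSS. None of the 34 partner genes was itself among the 80. Counting only summits whose nearest TSS was the gene's own left 27 of 80 secretory genes (33.8%), against 19.1% of all genes. Gene groups under this rule numbered 7 coat, 11 Rab, 4 translocon and targeting, 3 syntaxin, 2 exocyst and 0 TRAPP genes. The genes with no other TSS within 1 kb of their strongest summit were 9, namely gammaCOP, Sec24AB, Sec24CD, Sec8, Rab35, Rab11, Rab19, Syx17 and Syx13.

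DNA words at the summits were counted within 50 bp, on both strands, over the 52 distinct summits that lay within 1 kb of a secretory TSS. TATCGA, shown in capitals in the printed sequences, lay at 24 of the 52 (46.2%), against 44.0% of the 2912 promoter summits in all. In windows centred 500 bp to each side it lay in 2.88% for the secretory genes and 3.73% for all promoters. Counted over all distinct summits, the secretory genes thus carried the word at about the same share as promoters in general. Taking the strongest summit of each gene, the word lay at 13 of 17 Rab genes, 4 of 7 translocon and targeting genes, 3 of 5 syntaxins, 3 of 9 coat genes, 0 of 3 exocyst genes, 0 of 1 TRAPP gene and at Sec20. Together these were 24 of the 43 genes (55.8%), against 49.1% of all genes with such a summit, a difference that was not tested. Sec61beta, the second strongest, lacked it. As printed above, Srp14, Rab30 and Syx17 each held 3 matches, of which 2 overlap at Srp14 and at Rab30, where TATCGATA reads as the word on both strands.

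The core word of Engrailed-class homeodomains, TAATTA, lay at 2 of the 52 secretory summits (3.85%), against 5.05% of all promoter summits, and in 3.85% of the secretory flanks. The summits that held it were at Rab21 and a weak one, with a signal of 19.0, at beta'COP. GGTCACA, the core of the housekeeping promoter element called Motif 1, lay at 4 of 52 (7.69%), against 5.22% of all promoter summits. It was found at Rab14, Syx13, Rab6 and Sec24AB. ACGTG, a core bound by bZIP factors such as CrebA and Xbp1 that are known to act on secretory genes, lay at 5 of 52 (9.62%), against 8.83% of all. TGACGT lay at 3.85% against 2.27%, and the E-box word CAGCTG at 7.69% against 7.90%. Any TGACGT followed by G also holds ACGTG. These counts of 2 to 5 summits are too small to order the words.

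**Figure D4:**
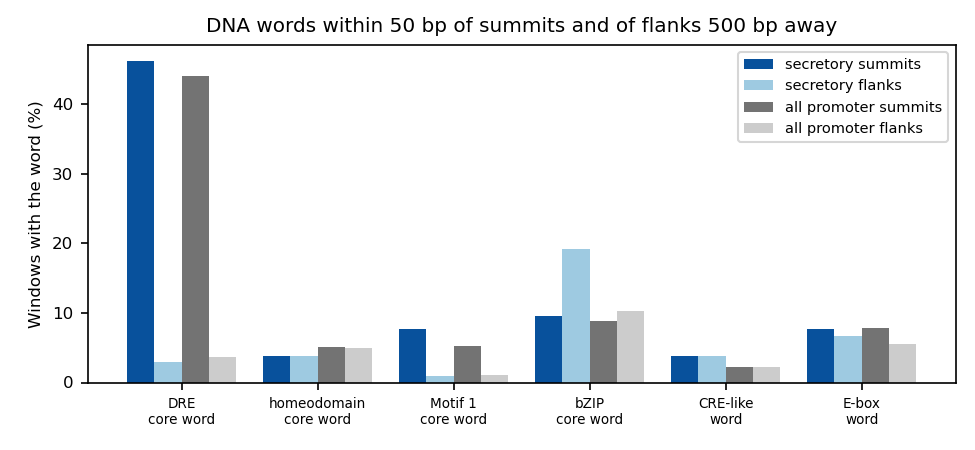
Share of windows (%) within 50 bp that hold each of 6 words, at the 52 secretory summits, in their flanks 500 bp away, at all 2912 promoter summits and in their flanks. The DRE core word (TATCGA) stands at 46.2% of secretory summits and 44.0% of all promoter summits, and the homeodomain core word (TAATTA) at 3.85% and 5.05%.

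Promoter sequence was compared between genes with and without a summit. TATCGA lay between 250 bases before and 50 bases after a TSS in 39 of 80 secretory genes (48.8%), against 31.3% of all protein-coding genes. It was found in 32 of the 43 secretory genes with a summit near the TSS (74.4%) and in 7 of the 37 without one (18.9%). Over all genes the shares were 63.7% with a summit and 19.1% without. In the Rab group it was in 15 of 17 genes with a summit and in 0 of 11 without, and in the coat group in 7 of 9 with and in 0 of 4 without. In the translocon and targeting group it was in 5 of 7 with and in 3 of 6 without, namely SrpRalpha, Srp54 and Srp9. Syntaxins had it in 3 of 5 with and in 2 of 5 without, and exocyst genes in 1 of 3 with and in 1 of 3 without, so the gap between genes with and without a summit was not seen in every group. Genes with several TSS were counted when any of them had the word. The words were found by letters alone and were not tested for function.

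Genes without a summit near their TSS mostly had weak peaks there in the ranked list, which also holds peaks that did not pass the authors' reproducibility threshold. Of these 37 genes, 36 had a ranked peak within 1 kb, with signals from 8.03 at Rab9Fa to 89.8 at Syx7 and a median of 40.5. That list held 139890 peaks, so a ranked peak near a TSS is common and is not by itself a sign of binding. The share of all genes with such a ranked peak was not computed. The score, the authors' rescaling of reproducibility up to 1000, was at most 707, at Rab3-GAP, and the lowest score in the main list was 830. Rab3-GEF had none. The strongest peaks of the 43 genes with a summit started at 67.2, and weaker listed peaks of the same genes reached down to 3.37, at epsilonCOP. The signals on both sides of the threshold thus overlapped.

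Other genes of the same pathway, taken from a list of 63 names, were counted for context. Of 62 that matched a gene, 32 (51.6%) had a summit within 1 kb of an own TSS, against 27.2% of all genes, and 40 (64.5%) had one by the wider rule, against 37.7%. The median of the strongest peaks was 306, against 195 over all genes with such a summit. Of the 32, 25 were listed in both replicates, against 2356 of all 3800 genes with a summit (62.0%). TATCGA lay at 17 of the 32, close to the share over all genes with a summit, 1865 of 3800 (49.1%). RabX1 led with 1294 pooled, 830 in replicate 1 and 446 in replicate 2. OstDelta, a subunit of oligosaccharyltransferase, had 897 pooled, 626 in replicate 1 and 266 in replicate 2. Vps45 and Ykt6, which act in SNARE assembly and fusion, had 567 and 550 pooled, and Spase22-23, a signal peptidase subunit, had 543. CHOp24, a p24 cargo receptor, had 504. The summit at Vps45 lay 168 bp from its own TSS and nearer that of CG9393. Those at RabX1, OstDelta, Ykt6, Spase22-23 and CHOp24 lay nearest their own. How many of the 32 had a nearer neighbour was not counted. The list was chosen with earlier results of these data known, as the 80 genes were.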

How the data were processed

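Per the file headers, peaks on dm6 were ranked and thresholded by the irreproducible discovery rate. Neither aligner nor peak caller is given in the sources used here. The signal and the score of each peak are the deposited values of the authors, and no counts were used. Control libraries were not analysed here. Genes and TSS came from protein-coding transcripts of Ensembl release 115 and sequence from the Release 6 genome, which shares the coordinates of dm6. A gene was counted when a summit lay within 1 kb of any of its TSS, or, by the wider rule, in the gene or within 2 kb. An overlap of 1 bp or more made a peak shared. Assignment was tested on simulated data with summits at known distances, at TSS with no other TSS within 5 kb. Shared promoters were therefore not covered by that test. The samples formed 1 group with 2 replicates, so no test and no p-value was computed. The 80 genes, the groups and the lists were chosen with earlier results of these data known. Named with values were all translocon, coat and syntaxin genes with a summit near their TSS, and up to 5 of larger groups by signal (all where 8 or fewer). The ends of the Rab range, the example promoters, the promoter word shares by group and the genes without a partner were chosen after their values were seen. So were the genes outside the symbol rule that are named with the COPII coat and the tethering complexes. Alternatives were the conservative list, the upper 50% by signal, each replicate alone, windows of 500 bp and 2 kb, the nearest TSS, the gene body alone or with 5 kb, words within 100 bp and an overlap of 50%. Python 3.11.15, numpy 2.4.6, pandas 2.3.3, scipy 1.17.1 and matplotlib 3.10.9 were used.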

Additional observations from a re-analysis of the deposited data

How the results depend on the processing

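Of 69 recomputed values, 58 stayed within 1.5 times the reported count or median, or within the 95% exact binomial interval of the reported share. These limits do not measure variation between replicates, and several alternatives reuse peaks of the main list. The interval treats the summits as independent, although some lie in overlapping peaks. It is wide: a TATCGA share of 60.5% among the upper 50% by signal fell inside it, beside 46.2% in the main list. With only the nearest TSS, all secretory genes numbered 27, translocon and targeting genes 4, Rab genes 11, syntaxins 3 and TRAPP genes 0. By construction, this rule drops summits that lie nearer another gene. With the gene body alone, 8 secretory genes had a summit, and a window of 2 kb gave 2 TRAPP genes. Among the upper 50% by signal, 92.1% of the peaks overlapped both replicates. Without each replicate in turn, secretory genes numbered 35 to 42, TRAPP genes numbered 0 (without replicate 1) to 1, the median signal was 131 to 243, each on its own list's scale, and the share of peaks that overlapped both replicates was 82.6% to 100%; where the remaining list is itself 1 of those overlapped, this share counts only the other replicate. No paired analysis was possible because the samples formed 1 group. The cause of the other changes was not tested, and what depth limits could not be assessed without read numbers.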

Other observations

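The word ACGTG was more frequent beside the secretory summits than at them. It lay in 20 of the 104 windows centred 500 bp from the 52 secretory summits (19.2%), and at 5 of the summits themselves (9.62%). Over all promoter summits it lay in 10.3% of the flanking windows and at 8.83% of the summits. The flanks of secretory genes thus held the word at a higher share than flanks in general, while the summits did not stand apart. The comparison was noticed in the data, some summits lie in overlapping peaks of the same gene, and it was not tested.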
